A study of Homo sapiens with 12 samples.

Results

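The 91 genes described here encode the nuclear-encoded subunits of the mitochondrial respiratory chain and ATP synthase. They were taken from the 58735 genes of the count table by biotype and name, as protein-coding genes whose symbol starts with NDUF (NDUFAF assembly factors left out), UQCR, ATP5 or COX4 to COX8, or is SDHA, SDHB, SDHC or SDHD. The rule used no measured value. It gave 40 genes for complex I, 4 for complex II, 9 for complex III, 17 for complex IV and 21 for complex V, the ATP synthase. Complexes were assigned by the start of the name. NDUFA4, a complex IV subunit, and its paralogue NDUFA4L2 are therefore counted, summed and plotted under complex I throughout. The rule works on names, so it also took isoforms restricted to other tissues, 2 read-through genes (NDUFC2-KCTD14 and ATP5MF-PTCD1) and ATP5S, now named DMAC2L, which is not a structural subunit.

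Complexes I to IV sit in the inner mitochondrial membrane and pass electrons from NADH and succinate to oxygen. Complexes I, III and IV pump protons as they do so, and complex V uses the resulting gradient to make ATP. Most subunits are encoded in the nucleus, translated in the cytosol and imported, while a small hydrophobic set is encoded in mitochondrial DNA, so each complex except II needs both genomes. Autophagy, for which the ATG7 protein is required, is one route by which cells remove mitochondria, and respiratory complexes I and III are a source of reactive oxygen species.

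RNA was sequenced from HLE-B3, an immortalized human lens epithelial cell line, in 4 groups of 3 libraries. WT cells were collected untreated at 0 h (WT 0 h) or after 200 µM H2O2 for 12 h (WT H2O2), and Atg7KO cells were collected in the same 2 states (Atg7KO 0 h and Atg7KO H2O2). All cells were grown in DMEM/F12 medium with fetal bovine serum. Atg7KO cells were made with CRISPR/Cas9 and puromycin selection followed by picking of clones, and the labels do not say how many clones the libraries came from, so the knockout and the choice of clone cannot be told apart. No untreated sample was collected at 12 h, so H2O2 and 12 h of further culture cannot be told apart either.

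Depth was even, at 15602183 to 17659496 counted reads per library. ATG7 mRNA was not lower in the Atg7KO groups (mean FPKM 2.55 and 1.96 in WT 0 h and WT H2O2, 3.55 and 2.19 in the matching Atg7KO groups), so the counts do not check the knockout label, since a small CRISPR lesion need not lower the mRNA. Of 12 lens epithelium markers 5 had a mean FPKM above 1 in at least 1 group, with CDH2 the highest, while FOXE3, CRYAA, MAF and PROX1 stayed at or near 0. Of 7 fibroblast markers 5 passed that level, with a summed FPKM of 650 to 682 in WT 0 h, 292 to 309 in WT H2O2, 385 to 535 in Atg7KO 0 h and 262 to 271 in Atg7KO H2O2. Of 7 lens fibre markers 1 passed it, and all 5 leukocyte markers stayed below it. The part of these markers in the results below was not tested.

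Respiratory chain genes are known for promoters with sites for a few shared transcription factors, and some are shown because the subunit genes that hold one of them were all lower in the comparison of the genotypes under H2O2. RefSeq promoter sequences (250 bases before to 50 after the start, GRCh38.p14) were found for 71 of the 91 genes. Both strands were searched for GCGCATGCG, a core of the nuclear respiratory factor 1 (NRF-1) site, for CCGGAAG, an ETS site of the kind bound by GABP (also called NRF-2), and for AAGATGGCG, a YY1 site. The NRF-1 letters were in 10 of the 71 promoters (14.1%, against 2.76% of 15843 protein-coding promoters), the ETS letters in 20 (28.2% against 14.2%) and the YY1 letters in 8 (11.3% against 2.74%). At least 1 motif was in 31 of the 71. Gene starts in the count table can differ from those of RefSeq. By the count table the NDUFS7 stretch lies inside the gene and that of COX8A reaches into it. The reason given for showing stretches holds for the NRF-1 letters only. For the ETS letters 13 of 20 subunit genes tested were lower, and NDUFS1, which holds them, was higher. The 2 ETS stretches shown, of COX8A and NDUFB7, are both from genes that were lower. Stretches upstream of the RefSeq start follow, 5′ to 3′ on the gene's strand, with the NRF-1 letters, or the ETS letters in COX8A and NDUFB7, in capitals.
NDUFS7 (chr19:1383823-1383851, + strand): ttccggtttcCGCATGCGCtccgagccgc
NDUFS6 (chr5:1801351-1801379, + strand): cagaagccgtGCGCATGCGttagcgctaa
NDUFB4 (chr3:120596167-120596196, + strand): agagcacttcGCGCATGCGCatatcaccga
ATP5F1C (chr10:7788145-7788174, + strand): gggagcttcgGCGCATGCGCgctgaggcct
ATP5MC2 (chr12:53676106-53676134, - strand): gcccgggtcaCGCATGCGCtgagccttcc
ATP5ME (chr4:674336-674364, - strand): gccgctgacgGCGCATGCGtgcgcccagc
NDUFB7 (chr19:14572074-14572100, - strand): cctaaatgacCCGGAAGctgtgtctga
COX8A (chr11:63974592-63974618, + strand): agctccagaaCTTCCGGccagcgcagc

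One library, Atg7KO 0 h replicate 1, stood apart over many genes and not only in those described here. Summed over the 91 genes, FPKM (fragments per kilobase of exon, scaled to library depth) was 2563, 2529 and 2626 in WT 0 h, 3064, 3065 and 3228 in WT H2O2, 5033, 2682 and 2660 in Atg7KO 0 h, and 2580, 2518 and 2484 in Atg7KO H2O2. Atg7KO 0 h replicate 1 was the highest of the 12 libraries, while replicates 2 and 3 lay between the WT groups. Against those 2 replicates its log2 CPM was higher for 79 of 83 subunit genes, by a median of 0.86, where the median over 16856 genes was 0.00. Over these 16856 genes its mean correlation with them was 0.974, where every library outside Atg7KO 0 h had 0.991 with its own replicates. Cytosolic ribosomal protein genes shared the shift, with a median of 0.95, and so did mitochondrial ribosomal protein genes, with 0.68. Assembly factors had 0.55, electron and nucleotide carriers 0.48, tricarboxylic acid cycle genes 0.29, mitophagy receptors 0.26 and regulators 0.03. The 13 mitochondrially encoded subunit genes had -0.05. The shift fell with gene length, from a median of 0.33 over all genes in the shortest quintile of gene lengths to -0.37 in the longest, and among the subunit genes from 0.99 to 0.48. What made this library differ was not tested. Counts and medians over the subunit genes that rest on it are given with and without it.

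**Figure D1:**
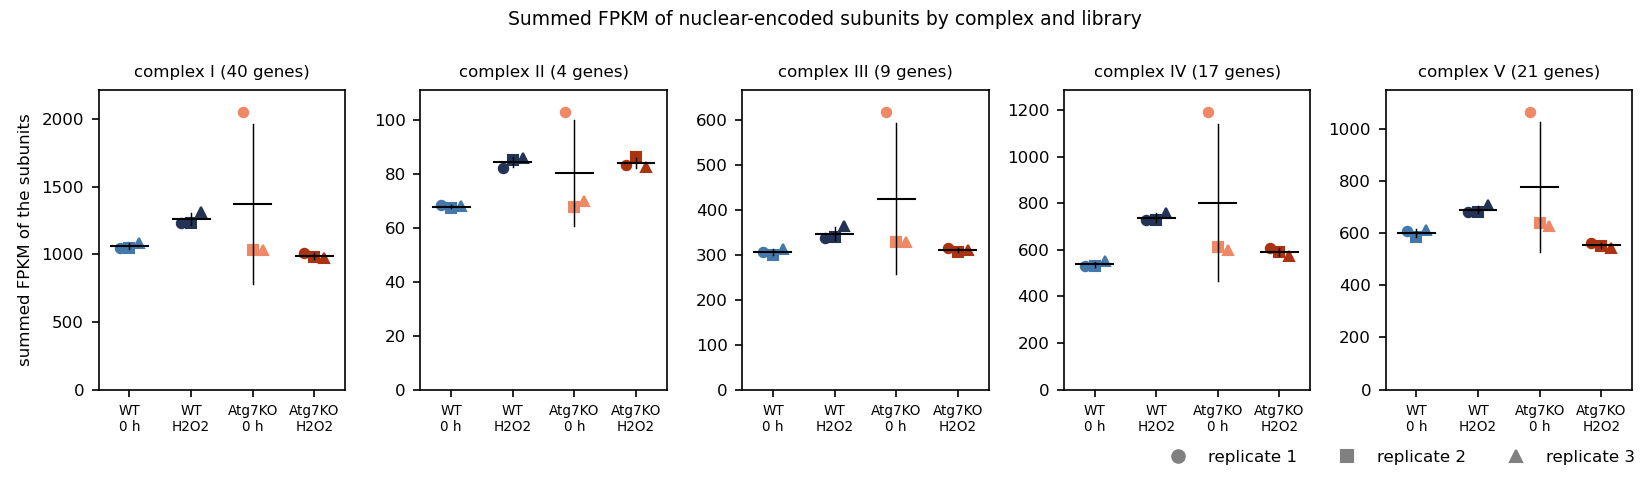
Summed FPKM of the nuclear-encoded subunit genes of each complex (y axis, linear from 0) in the 12 libraries, by group on the x axis. Symbols mark replicates 1 to 3, horizontal lines the mean of 3 and vertical lines 1 SD. Atg7KO 0 h replicate 1 is the highest point in every panel (2054 for complex I, against 1032 and 1035 in replicates 2 and 3), and complex II is the one complex whose sums stay as high in Atg7KO H2O2 (82.5 to 86.0) as in WT H2O2 (82.1 to 85.6).

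By complex, the sums in WT cells rose from 1060 ± 20.2 (SD, n = 3) to 1260.0 ± 46.0 for complex I, from 67.8 ± 0.462 to 84.3 ± 1.89 for complex II, from 306 ± 6.64 to 346 ± 14.4 for complex III, from 537 ± 11.05 to 738 ± 18.8 for complex IV and from 602 ± 15.2 to 691 ± 14.3 for complex V after H2O2. In Atg7KO H2O2 they were 988 ± 20.4, 83.9 ± 1.81, 311 ± 4.69, 592 ± 17.7 and 553 ± 8.47 in the same order. The WT H2O2 and Atg7KO H2O2 libraries overlapped for complex II and were fully apart for the other 4 complexes. Without replicate 1 the Atg7KO 0 h means were 1033, 68.8, 328, 607 and 634. These are means of bulk RNA scaled to library depth, so they give relative levels and not amounts per cell. A change in some of the cells and a smaller change in all of them cannot be told apart.

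Per length, the levels of single subunit genes ran over more than 2 orders of magnitude. The median of the 91 mean FPKM values in WT 0 h was 18.8, and the highest were NDUFS5, an accessory complex I subunit, at 251 and ATP5F1B, the catalytic beta subunit of ATP synthase, at 155. Isoforms known from other tissues were at or near 0. COX4I2, a hypoxia-linked isoform of COX4I1, and COX6A2 and COX7A1, isoforms of heart and muscle, reached at most 0.281, 0.216 and 0.517 FPKM in any library. COX8C and COX7B2, known from testis, reached at most 0.122 and 0.451. The corresponding common isoforms were plentiful, with COX4I1 at 16.8 to 37.7 FPKM and COX8A at 96.7 to 267 FPKM over the 12 libraries. NDUFA4L2, a paralogue of the complex IV subunit NDUFA4, was at 0.0200 to 0.336 FPKM where NDUFA4 was at 19.0 to 34.0. The read-through genes NDUFC2-KCTD14 and ATP5MF-PTCD1 and the gene ATP5MGL stayed at or below 0.208 FPKM. With low counts removed, 83 genes were tested in at least 1 comparison. COX4I2, COX6A2, COX7A1, COX7B2, COX8C, ATP5MGL, NDUFC2-KCTD14 and ATP5MF-PTCD1 passed in none, NDUFA4L2 in 2 of 5 comparisons and NDUFA7 in 3.

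A low value was not always a low isoform. NDUFV2, a core subunit that carries an iron-sulfur cluster beside NDUFV1, was at 0.478 to 2.52 FPKM where NDUFV1 was at 14.2 to 31.2, and NDUFA7, an accessory subunit, was at 0.163 to 0.996. In GENCODE 29, 28.4% of the exon bases of NDUFV2 and 33.5% of those of NDUFA7 lie in exons of other genes, and the share was 61.6% for ATP5ME, 49.1% for NDUFS7, 35.9% for NDUFB2 and 34.5% for COX8A. The kit named in the labels is not a strand-marking one and the counting settings were not given, so values of these genes are uncertain, and whether reads were lost or moved between neighbours was not tested. UQCRH had a near-identical copy in UQCRHL, which was at 1.46 to 2.64 FPKM against 81.5 to 179 for UQCRH.

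The comparison of Atg7KO with WT cells after H2O2 asks whether subunit mRNAs differ between autophagy-deficient and WT cells under oxidative stress, and it does not use the library that stood apart. Most subunit genes were lower in Atg7KO cells. Of 81 tested, 45 passed the test as lower (adjusted p under 0.01, edgeR quasi-likelihood test with Benjamini-Hochberg adjustment over 15909 genes) and 5 as higher, where 27.9% of all genes tested were lower and 27.7% higher. The changes were small, with a median log2 fold change of -0.21 against -0.00 over all genes, and 3 subunit genes passed beyond a log2 fold of 1 where 13.4% of all genes did. Complex V had 14 of 19 lower with a median of -0.29, complex IV 7 of 12 with -0.20, complex I 18 of 37 with -0.17, complex III 5 of 9 with -0.13 and complex II 1 of 4 with -0.08.

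**Figure D2:**
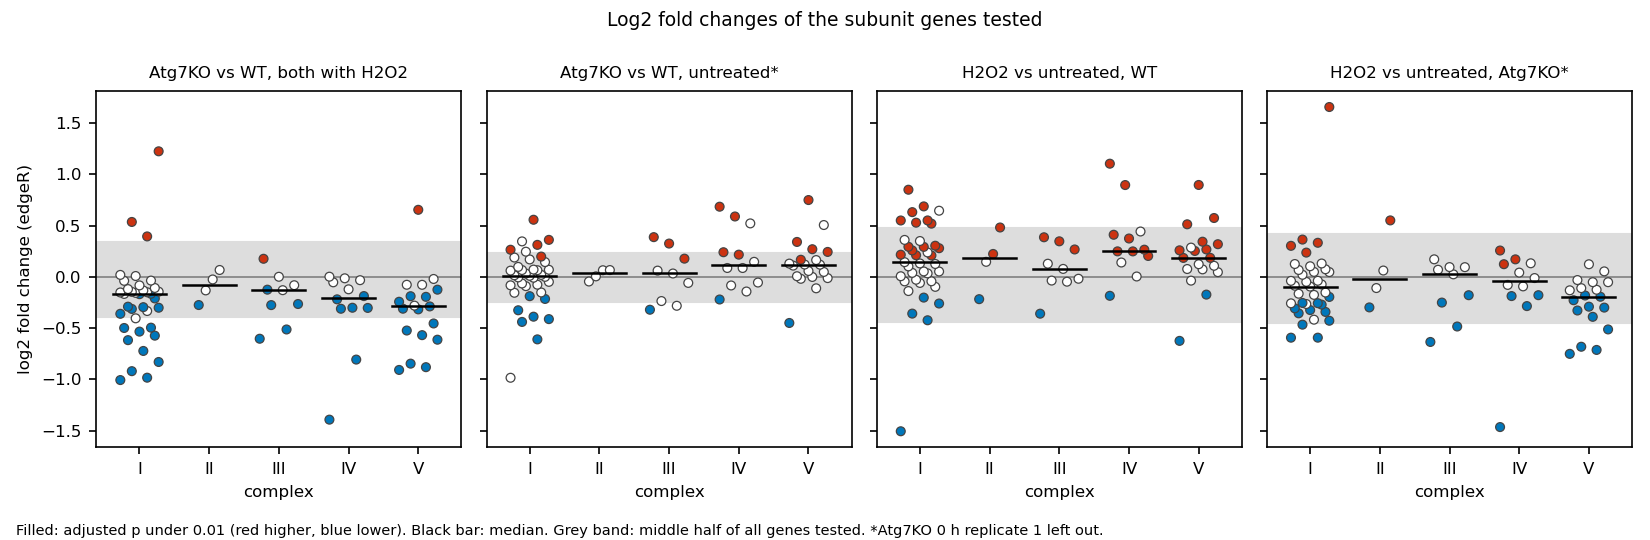
Log2 fold change (y axis) of each subunit gene tested, by complex (x axis), in 4 comparisons. Filled points passed at an adjusted p under 0.01 (red higher, blue lower), black bars are medians over the complex, the grey band is the interquartile range over all genes tested, and starred panels leave out Atg7KO 0 h replicate 1. In the first panel every complex has its median below 0, lowest in complex V at -0.29, and in the third every complex has it above 0.

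Complex I held the 3 lowest log2 fold changes among subunit genes above 1 FPKM. NDUFS7, a core subunit with the last iron-sulfur cluster before ubiquinone (chr19:1383527-1395589, + strand), was at 2.84, 2.60 and 3.32 FPKM in WT H2O2 and 1.43, 1.41 and 1.55 in Atg7KO H2O2. The groups were apart, with a log2 fold change of -1.01 ± 0.104 (SE) and adjusted p = 5.32e-10. NDUFB7, an accessory subunit of the membrane arm (chr19:14566078-14572062, - strand), was at 115, 118 and 123 FPKM in WT H2O2 and 59.5, 60.4 and 61.4 in Atg7KO H2O2, a log2 fold change of -0.98 ± 0.0584. NDUFA11, which sits at the junction of the membrane arm (chr19:5891276-5904006, - strand), fell from 4.81, 5.06 and 5.18 to 3.01, 2.57 and 2.42, or by 0.92 on the log2 scale. All 3 lie on chromosome 19, and the genes around them were lower too, as described below. NDUFV1, which binds the flavin that takes electrons from NADH, fell by 0.36, while NDUFS3 and NDUFS8 did not pass, at -0.11 and -0.15.

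Of the 5 genes that were higher, 3 encode subunits of the arm of complex I that takes electrons from NADH. The arm did not move as a whole, since NDUFV1, NDUFA2, NDUFS6 and NDUFA12, also of this arm, were called lower. NDUFS1, the largest core subunit, with 3 iron-sulfur clusters on the path from NADH (chr2:206114817-206159603, - strand), was at 5.71, 5.75 and 5.99 FPKM in WT H2O2 and 8.77, 8.50 and 8.14 in Atg7KO H2O2, a log2 fold change of 0.53 ± 0.0477 with adjusted p = 2.11e-11. The 6 values did not overlap, and those of Atg7KO H2O2 were close to the untreated WT values of 7.90, 7.63 and 7.80. NDUFV2 (chr18:9102630-9134345, + strand) was at 0.718, 0.743 and 1.01 FPKM in WT H2O2 and 2.52, 1.71 and 1.59 in Atg7KO H2O2, a log2 fold change of 1.22 ± 0.214, on counts of 23 to 117 reads over all libraries. ATP5S was higher by 0.65, NDUFV3, an accessory subunit of the NADH-oxidizing arm, by 0.39 and UQCRC1, a core subunit of complex III, by 0.18.

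In complex II 1 of 4 genes passed, and the core subunits of complex III differed among themselves. SDHA, the flavoprotein of succinate dehydrogenase, had a log2 fold change of 0.07 and SDHB and SDHC had -0.03 and -0.13, none of which passed, while SDHD, a membrane anchor, fell by 0.28. UQCRC2, the partner of UQCRC1 in the core of complex III, went the other way from it, from 13.01, 12.6 and 14.1 FPKM in WT H2O2 to 8.18, 8.39 and 9.66 in Atg7KO H2O2, a fall of 0.60 ± 0.0615 on the log2 scale. UQCRFS1, the Rieske iron-sulfur protein, had -0.13 with an adjusted p of 0.00811, a call that was lost when any 1 of the 6 libraries was left out.

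In complex IV COX4I1 and COX5B each fell by 0.30, and COX5A did not pass at 0.00. COX8A, a small membrane subunit (chr11:63974607-63976543, + strand), was at 219, 225 and 206 FPKM in WT H2O2 and 131, 124 and 119 in Atg7KO H2O2, a fall of 0.81 ± 0.0497. COX6A1 fell by 0.31 and COX6B1 by 0.19, while COX7A2 and COX7A2L had -0.03 and -0.01 and did not pass. COX6B2, a testis isoform, had the lowest log2 fold change of the subunit genes, -1.39 ± 0.339, at under 0.6 FPKM in every library.

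In complex V the 3 genes for the proton-carrying c subunit, whose mature proteins are the same, all fell but not by the same amount. ATP5MC1 (chr17:48892765-48895871, + strand) was at 48.5, 46.7 and 49.2 FPKM in WT H2O2 and 26.9, 24.95 and 25.5 in Atg7KO H2O2, a fall of 0.91 ± 0.0471, and ATP5MC2 and ATP5MC3 fell by 0.32 ± 0.0475 and 0.29 ± 0.0480. ATP5IF1, the inhibitor that stops ATP synthase from running backwards, was at 24.5, 24.5 and 24.4 FPKM in WT H2O2 and 14.4, 12.6 and 13.1 in Atg7KO H2O2, a fall of 0.88 ± 0.0634. Of the catalytic head, ATP5F1D, the delta subunit of the rotor, fell by 0.85, ATP5F1C, the gamma shaft, by 0.31 and ATP5F1B by 0.13, and ATP5F1A, the alpha subunit, did not pass at -0.08.

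Several of these genes lie in stretches of the genome that were lower as a whole in Atg7KO cells. For each subunit gene the 20 nearest genes tested, 10 on each side and none of them subunit genes, were taken as its neighbours. Over 81 subunit genes the log2 fold change followed the neighbours' median with a Pearson r of 0.51 and Spearman rho of 0.44, a description over genes that share libraries and sometimes neighbours. The neighbours of NDUFA11 had a median of -0.78, with 19 of 20 below 0, those of NDUFS7 -0.71 and those of NDUFB7 -0.48. Those of ATP5S had a median of 0.86, above that of ATP5S itself at 0.65. In 14 subunit genes the neighbours' median was under -0.25, and 11 of these 14 were lower. Among the other 67 genes 34 were lower, with a median of -0.17. The neighbours of COX8A and ATP5MC1 had medians of 0.02 and -0.06, and those of NDUFV2 had 0.24. Over 82 subunit genes in untreated cells r was 0.44, while for H2O2 in WT cells it was -0.03 over 83. Whether these stretches differ in copy number was not tested.

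**Figure D3:**
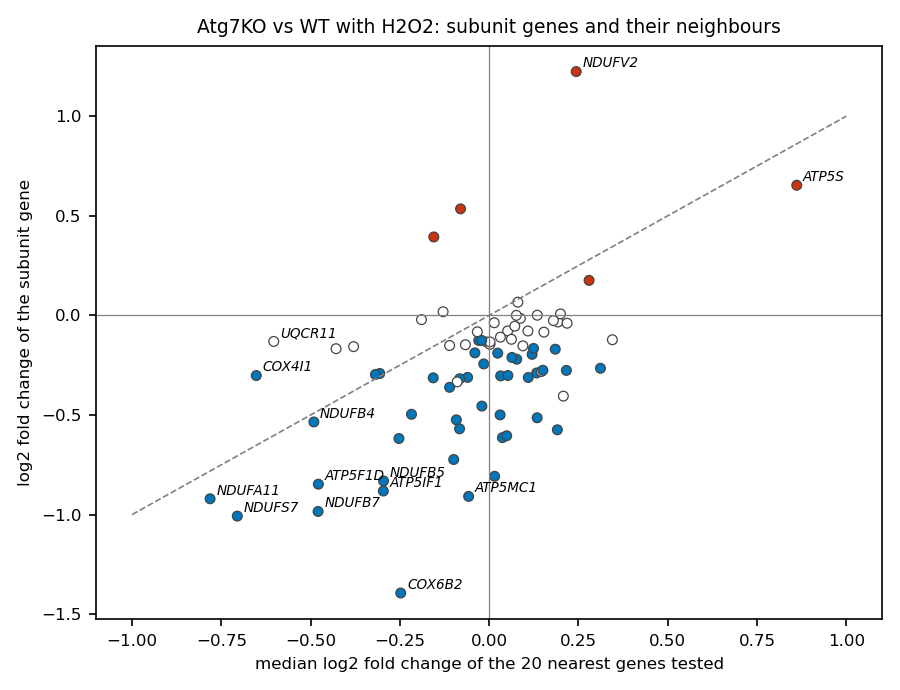
Log2 fold change of each of 81 subunit genes in Atg7KO against WT cells with H2O2 (y axis) against the median log2 fold change of its 20 nearest genes tested (x axis). Filled points passed at an adjusted p under 0.01 (red higher, blue lower) and the dashed line marks equal values. NDUFA11 and NDUFS7 lie at the lower left with neighbours at -0.78 and -0.71, while ATP5MC1 is low with neighbours near 0.

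Gene length moved with the comparison as well, and subunit genes are short. Over all genes tested the median log2 fold change was -0.18 in the shortest quintile of gene lengths and 0.18 in the longest. The subunit genes had -0.30 in the shortest quintile, which held 36 of them, and -0.12 in the longest, with 9. Taken against the median of its own length quintile, 58 of 81 subunit genes were below and 23 above, with a median difference of -0.12. With a correction for length in the fit, 32 were lower and 8 higher, with a median of -0.13, and 18 of the 50 calls were lost, among them those of COX5B, COX6A1, COX6B1, SDHD, UQCRFS1 and ATP5F1B. Leaving out some single library ended 12 calls, among them those of ATP5F1B, SDHD and UQCRFS1. In a single fit to all 12 libraries, which takes in the library that stood apart when the spread is estimated, 11 were lower and 3 higher. In the same fit to the 11 others, 43 were lower and 5 higher. The shares of all genes called in these alternative fits are not given here.

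All 10 subunit genes with the NRF-1 letters in the promoter were among those lower, with a median of -0.32, against 27 of 56 subunit genes without them, with a median of -0.18. They are ATP5F1C, ATP5MC2, ATP5ME, ATP5PF, COX6A1, NDUFA8, NDUFB4, NDUFS6, NDUFS7 and SDHD. Among other protein-coding genes tested the letters did not go with lower calls, with 28.3% lower of 374 genes that had them and 29.4% of 10172 that did not. For the ETS letters 13 of 20 subunit genes were lower, against 24 of 46 without, and for the YY1 letters 2 of 7 against 35 of 59. Among other protein-coding genes tested, 31.6% of 1990 with the ETS letters were lower, against 28.8% of 8556 without. For the YY1 letters the shares were 29.9% of 401 and 29.3% of 10145. Of the 10 genes with the NRF-1 letters, 5 kept the call with the length correction (ATP5ME, ATP5PF, COX6A1, NDUFS6 and SDHD lost it) and 1, NDUFS7, kept it in the fit to all 12 libraries. These counts were made after the calls were known, and no test was made of them.

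The comparison of untreated Atg7KO with untreated WT cells gives the state before H2O2, and here the library that stood apart decided the picture. With all 6 libraries 1 of 82 subunit genes was higher and 0 were lower with edgeR, where 4.42% of all genes were higher and 3.28% lower. At an unadjusted p under 0.05 edgeR had 15 higher and 1 lower, and DESeq2 had 4 higher and 0 lower after adjustment. The shares of all genes for these counts are not given here, so the counts cannot be set against all genes. No subunit gene passed beyond a log2 fold of 1, where 4.78% of all genes did. The median log2 fold change was 0.39, but without Atg7KO 0 h replicate 1 it was 0.06, with 17 genes higher and 10 lower, close to the 18.2% and 17.9% of all genes. The sign changed for 22 of the 82 genes.

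The gene that passed in both was ATP5S (chr14:50312326-50335558, + strand), at 2.07, 2.08 and 2.16 FPKM in WT 0 h and 3.61, 3.49 and 3.55 in Atg7KO 0 h, replicate 1 included. The groups were apart, with a log2 fold change of 0.75 ± 0.0878 and adjusted p = 0.00167, or 0.75 without replicate 1. Leaving out any one WT library ended this call, at log2 fold changes of 0.74, 0.75 and 0.78. Without replicate 1, the highest after ATP5S were COX6A1 at 0.68 and COX8A at 0.59. COX8A was at 102, 102 and 96.7 FPKM in WT 0 h and at 157 and 144 in Atg7KO 0 h replicates 2 and 3. Of the called genes above 1 FPKM, the lowest were NDUFS7 at -0.61, ATP5F1D at -0.45 and NDUFB5, an accessory membrane-arm subunit, at -0.44. These 3 were also among the lowest under H2O2, in a comparison that shares no library with this one. NDUFA7, at under 1 FPKM, had -0.99 and did not pass. NDUFB7 was at -0.41, ATP5MC1 at 0.05 (adjusted p = 0.49) and ATP5IF1 at 0.13 (adjusted p = 0.11).

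In WT cells H2O2 was followed by higher levels of more subunit genes than lower ones. Of 83 tested, 38 rose and 10 fell, where 30.9% of all genes rose and 30.1% fell, and the median log2 fold change was 0.20 against -0.01 over all genes. COX8A (1.10) and NDUFA7 (-1.51, at under 1 FPKM) passed beyond a log2 fold of 1, where 18.9% of all genes did. Complex IV had 8 of 12 genes higher with a median of 0.26, complex V 10 of 19 with 0.18, complex I 15 of 39 with 0.14, complex III 3 of 9 with 0.08, and in complex II SDHA and SDHD rose and SDHC fell. Short genes rose as a class, with a median of 0.22 over all genes in the shortest quintile of lengths, where the subunit genes had 0.25, and against its own length quintile 52 subunit genes were above and 31 below, by a median of 0.04. With the length correction 24 rose and 7 fell with a median of 0.08, and in the fit to all 12 libraries 5 rose and 3 fell. In the fit to the 11 others 37 rose and 11 fell. The shares of all genes called in these alternative fits are not given here either.

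COX8A rose in WT cells from 102, 102 and 96.7 to 219, 225 and 206 FPKM, a log2 fold change of 1.10 ± 0.0548 with adjusted p = 6.91e-23. ATP5ME, a membrane subunit of ATP synthase, rose by 0.90 ± 0.153 and COX6A1 by 0.89 ± 0.0880, from 17.9, 24.7 and 21.1 to 38.7, 37.4 and 42.8 FPKM. SDHA rose from 33.1, 33.0 and 32.9 to 45.6, 47.3 and 45.7, or by 0.48, and NDUFA6, an accessory complex I subunit, by 0.53. Among core subunits NDUFS3 (0.22), COX5A (0.25), COX5B (0.20) and ATP5F1B (0.18) rose. NDUFS1 fell by 0.42, UQCRC2 by 0.36 and ATP5F1A by 0.17, and ATP5S fell by 0.63. With the length correction 20 of the 48 calls were lost. They include NDUFS1, whose exons span 12268 bases and which then had -0.14, and NDUFS3, COX5A, COX5B, ATP5F1B, ATP5F1A, SDHC and SDHD. The values of ATP5F1A, COX5B and SDHC changed sign in at least 1 setting, and leaving out some single library ended the calls of 14 genes, among them NDUFS3, COX5B, SDHC and SDHD.

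In Atg7KO cells the response to H2O2 again depended on untreated replicate 1. With it, 1 of 81 subunit genes rose and 3 fell, where 13.6% of all genes rose and 12.4% fell, and the median log2 fold change was -0.50. NDUFV2 (1.72) and COX6B2 (-1.39) passed beyond a log2 fold of 1, where 14.2% of all genes did, and UQCRC2 and ATP5S fell by 0.71 and 0.72. Without it, 9 rose and 32 fell, where 29.8% of all genes rose and 28.6% fell, with a median of -0.11, and the 4 genes called with all libraries passed in the same direction. DESeq2 on all libraries had 12 falling and 1 rising. Leaving out Atg7KO H2O2 replicate 1 or 2 left 1 fall, with the calls of UQCRC2 and COX6B2 lost. For DESeq2 and for these smaller fits the shares of all genes are not given here, so their counts cannot be set against all genes.

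NDUFV2 rose in Atg7KO cells from 0.537, 0.559 and 0.657 to 2.52, 1.71 and 1.59 FPKM, with all treated values above all untreated ones. UQCRC2 went from 15.8, 13.3 and 13.6 to 8.18, 8.39 and 9.66 FPKM and ATP5S from 3.61, 3.49 and 3.55 to 2.29, 2.11 and 2.09. Both also fell in WT cells. Without replicate 1 the lowest log2 fold changes above 1 FPKM were -0.75 ± 0.0708 for ATP5IF1, -0.71 for ATP5S and -0.68 ± 0.0490 for ATP5MC1. SDHA rose by 0.55 ± 0.0343, with 32.6 and 33.2 FPKM in untreated replicates 2 and 3 and 48.3, 49.1 and 48.5 after H2O2, beside 0.48 in WT cells, and NDUFA6 rose by 0.36. ATP5F1A fell by 0.51 and NDUFV1 by 0.47.

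Set beside each other over 81 genes with all libraries, 2 subunit genes fell in both genotypes (ATP5S and UQCRC2) and none rose in both or moved in opposite directions, where 9.41% of 14895 genes fell in both, 11.2% rose in both and 0.336% rose in WT and fell in Atg7KO cells. Without replicate 1 the 2 genotypes gave 5 genes that rose in both (COX5A, COX6B1, COX7A2L, NDUFA6 and SDHA), 7 that fell in both, among them ATP5F1A, ATP5S, NDUFA5, NDUFB10, SDHC and UQCRC2, and 13 that rose in WT and fell in Atg7KO cells. The 13 were ATP5IF1, ATP5MC1, ATP5MC3, ATP5MF, COX5B, COX7C, COX8A, NDUFA1, NDUFB2, NDUFB6, NDUFB7, UQCR10 and UQCRB. Of 15116 genes tested in both, 20.2% rose in both, 19.5% fell in both, 1.89% rose in WT and fell in Atg7KO cells and 2.52% did the reverse, which no subunit gene did. The opposite calls rest on leaving out that library, and 7 of the 13 (ATP5IF1, ATP5MC1, COX5B, COX7C, NDUFB6, NDUFB7 and UQCR10) lost the WT call with the length correction.

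**Figure D4:**
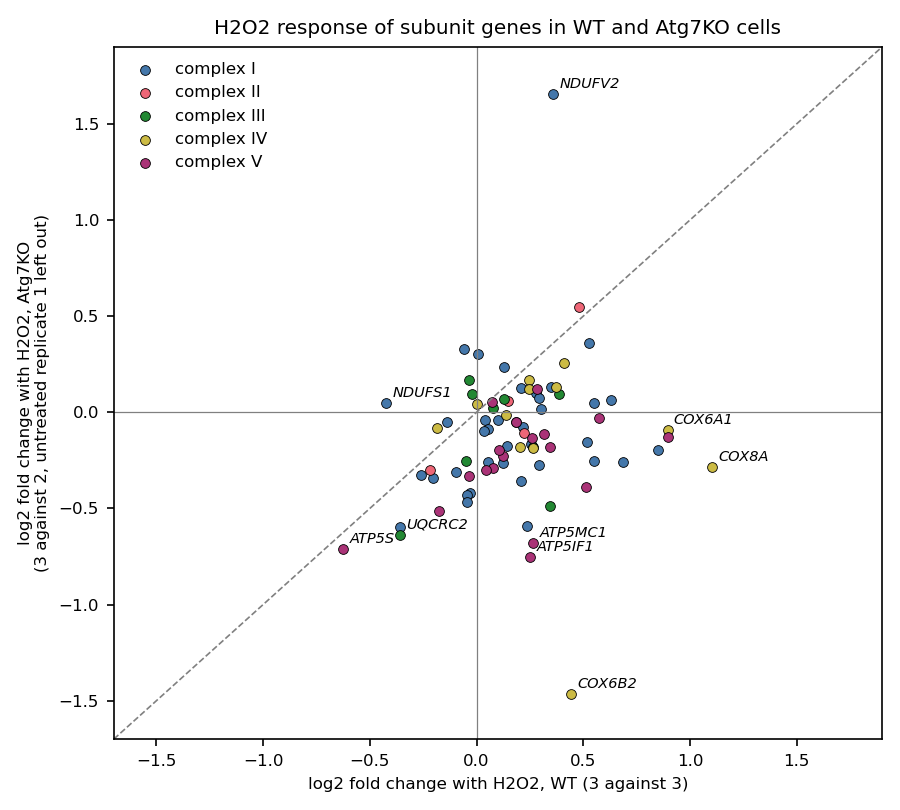
Log2 fold change after H2O2 in WT cells (x axis, 3 libraries against 3) and in Atg7KO cells (y axis, 3 against 2, untreated replicate 1 left out) for 81 subunit genes, coloured by complex. The dashed line marks equal responses. COX8A, COX6A1, ATP5MC1 and ATP5IF1 lie to the right of 0 and below the line, ATP5S and UQCRC2 are below 0 on both axes, and NDUFV2 is the highest point.

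The difference between the 2 responses was tested as an interaction over 16856 genes. It was lower in Atg7KO cells for 9 of 83 subunit genes and higher for 1, where 7.01% of all genes were lower and 7.02% higher, with a median of -0.59 against -0.03. Of these 10 genes 9 passed beyond a log2 difference of 1, where 6.22% of all genes did. Without untreated Atg7KO replicate 1 the counts were 37 lower and 3 higher, where 16.3% and 17.8% of all genes were, and the median was -0.26. All 10 genes passed in the same direction in both. By complex with all libraries, 3 genes were lower in complex V, 3 in complex IV, 2 in complex I and 1 in complex III, with medians of -0.74, -0.63, -0.57 and -0.46, and complex II had -0.33. Without replicate 1, 14 of 19 complex V genes were lower with a median of -0.34, 13 of 39 in complex I with -0.21, 5 of 12 in complex IV with -0.19 and 5 of 9 in complex III with -0.19, while complex II had a median of -0.07. COX8A, NDUFB2, ATP5MC1 and ATP5MF kept the call in every setting tried, while those of COX6A1, NDUFA11 and UQCR10 were each lost without any 1 of 9 libraries, that of COX6B2 without any 1 of 10 and that of ATP5IF1 without either of 2.

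COX8A had the lowest interaction above 1 FPKM, -1.71 ± 0.247 with all libraries (adjusted p = 0.000487) and -1.38 ± 0.0785 without replicate 1. Its WT values rose from 96.7 to 102 FPKM to 206 to 225, while those of Atg7KO cells went from 267, 157 and 144 to 131, 124 and 119 FPKM. COX6A1 had -1.39 ± 0.315 and -0.98 ± 0.127, and its call with all libraries was lost when any one library of WT or of Atg7KO H2O2 was left out (log2 -1.504 to -1.269). NDUFB2, an accessory membrane-arm subunit, had -1.35 ± 0.234 and -1.03 ± 0.0821, and ATP5IF1 -1.34 and -0.99. ATP5MC1 had -1.26 ± 0.239 and -0.94 ± 0.0709. The higher gene was NDUFS1, at 0.49 ± 0.0884 and 0.48 ± 0.0717, which fell in WT cells and did not pass in Atg7KO cells (0.05 without replicate 1, adjusted p = 0.373). With the length correction its interaction was 0.07 and did not pass, and the median over all genes was -0.38 in the shortest quintile of lengths and 0.33 in the longest. Taken against its own length quintile, 72 of 83 subunit genes were below, by a median of -0.42 with all libraries.

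**Figure D5:**
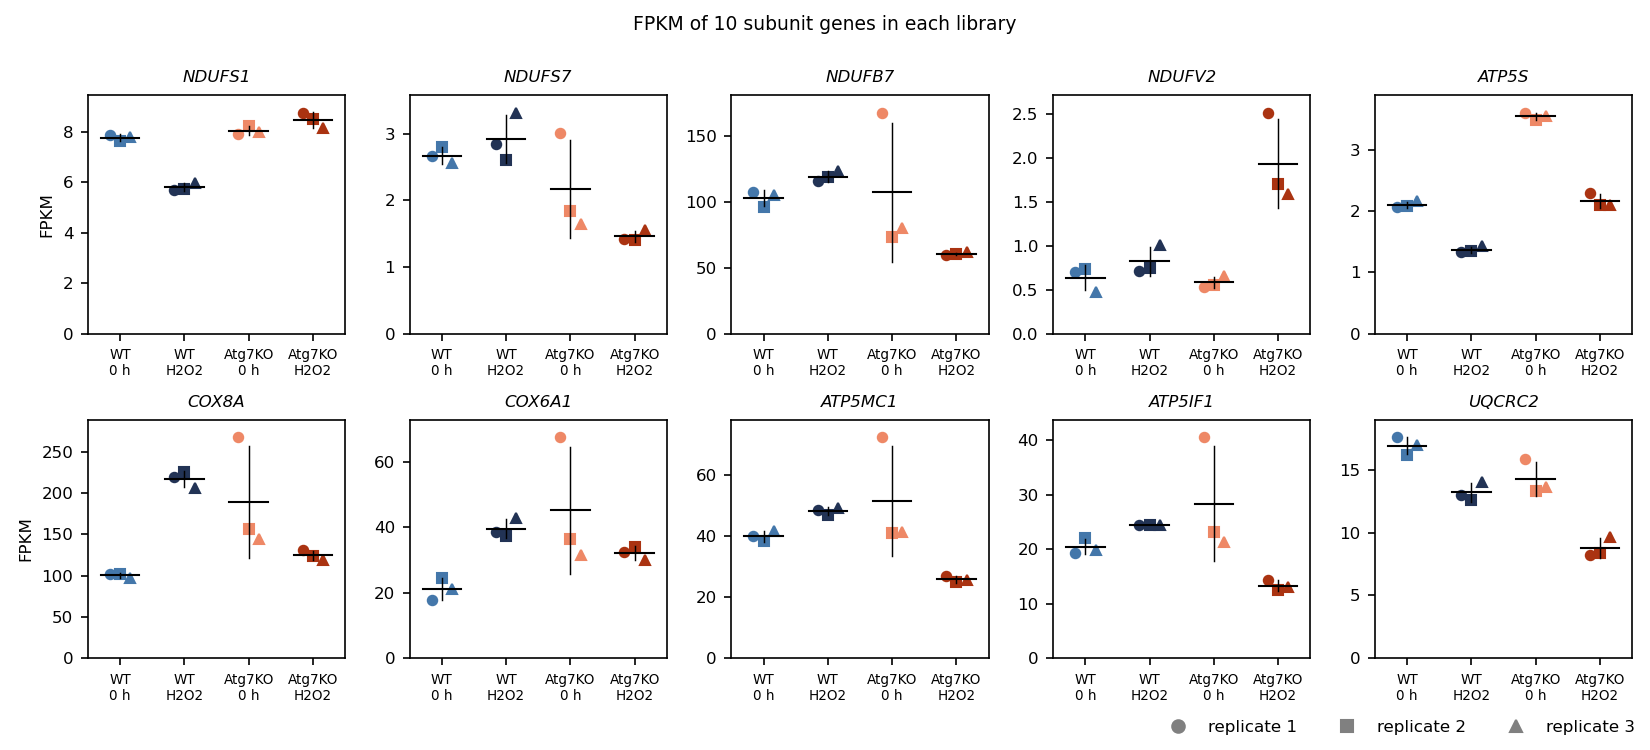
FPKM (y axis, linear from 0) of 10 subunit genes in the 12 libraries, by group on the x axis, with symbols for replicates 1 to 3, horizontal lines for the mean of 3 and vertical lines for 1 SD. Atg7KO 0 h replicate 1 is far above its group for COX8A, COX6A1, ATP5MC1, ATP5IF1, NDUFS7 and NDUFB7 but not for NDUFS1, NDUFV2 or ATP5S, and the Atg7KO H2O2 values of ATP5MC1 and ATP5IF1 are below those of the 3 other groups.

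Genes that work with these subunits gave a mixed picture. The 13 mitochondrially encoded subunit genes all fell with H2O2 in WT cells, by a median of 1.26, where 30.1% of all genes fell. In Atg7KO cells 7 fell with a median of -0.71 with all libraries, where 12.4% of all genes fell. Without replicate 1, 10 fell and 2 rose with -0.73, where 28.6% of all genes fell and 29.8% rose. After H2O2, 6 of the 13 were higher in Atg7KO than in WT cells (median 0.57), where 27.7% of all genes were. The interaction was higher for 6, with a median of 0.75, where 7.02% of all genes were higher. MT-CO1, the catalytic subunit of complex IV, had a mean FPKM of 8262 in WT 0 h, 3242 in WT H2O2, 7404 in Atg7KO 0 h and 4878 in Atg7KO H2O2. MT-ND5, a proton-pumping subunit of complex I, had 1262, 365, 1015 and 626.

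Of the regulators of these genes 11 of 12 were tested under H2O2, and 6 were lower and 1 higher in Atg7KO cells, with a median of -0.16. Over all genes 27.9% were lower and 27.7% higher. NRF1, which encodes NRF-1, fell by 0.66, GABPB1 by 0.57, TFB2M, a mitochondrial transcription factor, by 0.87, TFAM, which packages mitochondrial DNA, by 0.27 and PPRC1, a coactivator, by 0.42, and ESRRA, an orphan nuclear receptor, rose by 0.32. With H2O2 in WT cells 6 regulators rose, among them ESRRA by 1.60, TFB2M by 1.14 and TFAM by 0.86, and 2 fell. Over all genes 30.9% rose and 30.1% fell. The interaction was lower for 3 of 11, where 7.01% of all genes were lower. The 3 were TFB2M (-1.24), NRF1 (-0.55) and TFAM (-0.48), with -1.09, -0.54 and -0.41 without untreated Atg7KO replicate 1.

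Against 27.7% higher and 27.9% lower over all genes, other lists under H2O2, Atg7KO against WT, gave 4 higher and 16 lower of 50 assembly factors (median -0.20), 5 and 8 of 23 electron and nucleotide carriers (-0.03), 4 and 7 of 16 tricarboxylic acid cycle genes (-0.12) and 2 and 5 of 12 mitophagy receptors (-0.09). Ribosomal protein genes, which shared the shift of Atg7KO 0 h replicate 1, had 2 higher and 68 lower of 82 cytosolic (-0.31) and 11 higher and 30 lower of 78 mitochondrial ones (-0.11). CYC1, the cytochrome c1 of complex III, and CYCS, cytochrome c, stood outside the naming rule. CYC1 fell by 0.30 in that comparison and rose by 0.58 with H2O2 in WT cells, and CYCS had 0.00 and rose by 0.74. BNIP3, a receptor for mitophagy, was lower in Atg7KO cells by 0.75 under H2O2, and by 0.94 untreated without replicate 1 (-0.77 and not passing with it). PINK1, the kinase that marks damaged mitochondria, was higher in untreated Atg7KO cells by 0.83, or 0.91 without replicate 1.

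Against 30.9% higher and 30.1% lower over all genes, the same lists with H2O2 in WT cells gave 13 higher and 11 lower of 50 assembly factors (median 0.09), 10 and 8 of 23 carriers (0.05), 3 and 6 of 16 tricarboxylic acid cycle genes (-0.15) and 1 and 6 of 12 mitophagy receptors (-0.14). Cytosolic ribosomal protein genes rose in 77 of 82 cases, with a median of 0.42, larger than the 0.20 of the subunit genes, and 29 of 78 mitochondrial ribosomal protein genes rose and 5 fell (0.14). In Atg7KO cells with all libraries 1 of 82 cytosolic ribosomal protein genes passed, as higher, while the median was -0.26. Without replicate 1, 36 cytosolic ribosomal protein genes rose and 5 fell, with a median of 0.10, where the subunit genes had -0.11.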

How the data were processed

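Sequencing libraries of total RNA from 12 HLE-B3 samples (4 groups of 3 replicates, grouped by the labels) were analysed. Per the labels and the study's methods the authors aligned reads with HISAT2 2.0.5 to GRCh38 and counted them with featureCounts 1.5.0-p3, and they deposited raw read counts per gene and, in the same form, FPKM values. Strand and multi-mapping settings are not given in the sources used here. Gene lengths in the deposited table equalled union exon lengths of GENCODE 29 for all 58735 genes. No column of another sample was present. The authors' own fold changes were not used.

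Counts were tested with edgeR 4.0.16 (quasi-likelihood, TMM scaling, filterByExpr with a minimum count of 10) in R 4.3.3, per comparison on its own libraries and for the interaction on all 12, with Benjamini-Hochberg adjustment over all genes and a threshold of 0.01, as in the study. The authors' DESeq2 was rerun as an alternative (version 1.42.0), and limma 3.58.1 was run on log2 FPKM with pseudocounts of 1 and 0.1. Alternatives also covered the removal of the filter, scaling by upper quartile or RLE, at least 10 counts in every library, a replicate block, a lowess length correction (span 0.3), a fit to all 12 libraries and leaving out each library. The test script was checked on simulated counts with the same spread in every library and fold changes larger than most of those reported here. That check does not cover small changes or a library that stands apart. FPKM values are described, not tested. Values are given as mean ± SD or log2 fold change ± SE. The SE was derived from the log2 fold change and the edgeR test statistic. The study calls the replicates biological, and the labels do not say how the cultures were separated. The p-values therefore rest only on the variation between these samples.

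Genes were named by rule: catalytic core subunits, isoforms and ATP5IF1, in each comparison the 3 highest and 3 lowest called genes with a mean FPKM above 1 in some group, all genes that failed the filter, genes with copies or read-through partners, and genes whose call changed direction without untreated Atg7KO replicate 1, of which there were 0. Further genes were named after their values were seen. The subunit genes and all lists were chosen with earlier results of these data known. Pairs of same-numbered replicates had correlations of deviations of -0.04 to 0.10, so the numbers were not taken as pairs. A subunit gene that the rule would name is counted but not reported here by name.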

Additional observations from a re-analysis of the deposited data

Results flagged for a closer look

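The response to H2O2 differed between Atg7KO and WT cells, by the interaction test of edgeR over 16856 genes, for 9 subunit genes in the lower direction and 1 in the higher. The 9 had log2 differences of -1.83 for COX6B2, which was under 0.6 FPKM in every library, -1.71 for COX8A, -1.39 for COX6A1, -1.35 for NDUFB2, -1.34 for ATP5IF1, -1.28 for NDUFA11, -1.26 for ATP5MC1, -1.21 for UQCR10 and -1.15 for ATP5MF, and NDUFS1 had 0.492. Without untreated Atg7KO replicate 1, in the same order, they were -1.90, -1.38, -0.98, -1.03, -0.99, -0.93, -0.94, -0.82, -0.89 and 0.48, and all 10 passed. With all libraries, the calls of COX6A1, NDUFA11 and UQCR10 were each lost without any 1 of 9 libraries and that of COX6B2 without any 1 of 10, that of ATP5IF1 was lost without either of 2, and those of NDUFS1, UQCR10 and COX6B2 were lost with the length correction. The part of untreated Atg7KO replicate 1 in the larger values was not tested further. Groups of 3 libraries are too small for a test of single outlying samples.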

How the results depend on the processing

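Counts are of subunit genes higher and lower, and medians are log2. The share of all genes called in each setting is not given in this section, so a shift in counts cannot be set against it. No median over the subunit genes changed sign. Of the calls, 3 of 48 for H2O2 in WT cells (ATP5F1A, COX5B and SDHC) and 2 of 50 for Atg7KO against WT with H2O2 (ATP5F1B and NDUFB11) had values of the other sign in at least 1 setting. Leaving out 1 library at a time gave, for Atg7KO against WT with H2O2, 5 higher, 33 to 45 lower and medians of -0.25 to -0.17. For untreated cells it gave 0 to 17 higher and 0 to 10 lower, and for H2O2 in WT cells 30 to 38, 5 to 11 and 0.15 to 0.21. For H2O2 in Atg7KO cells it gave 1 to 9, 1 to 32 and -0.65 to -0.11, and for the interaction 1 to 3, 4 to 37 and -0.77 to -0.26, where the extremes of 17, 10, 9, 32, 3 and 37 came without untreated Atg7KO replicate 1.

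The fit to all 12 libraries gave 3 and 11 with H2O2, 6 higher untreated, 5 and 3 for H2O2 in WT and 2 and 19 in Atg7KO cells. DESeq2 gave 4 higher untreated, 12 lower for H2O2 in Atg7KO cells and 2 and 16 for the interaction. DESeq2 also tested genes of low count, over which its median was -0.13 for Atg7KO against WT with H2O2 and 0.24 for H2O2 in WT cells. Upper quartile scaling gave 6 lower and no filter gave 9 lower for H2O2 in Atg7KO cells, and no filter gave 2 and 47 for the interaction. On log2(FPKM + 1) limma gave 6 lower and a median of 0.14 for H2O2 in WT cells and 2 higher for the interaction, and with a pseudocount of 0.1 it gave 6 lower for H2O2 in WT cells.

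The length correction gave 8 higher and a median of -0.13 with H2O2, 2 higher untreated, 24 higher and 0.082 for H2O2 in WT and 7 lower in Atg7KO cells. Added after seeing the data and without untreated Atg7KO replicate 1, it gave 15 and 10 untreated, 11 and 33 with -0.087 for H2O2 in Atg7KO cells, and 5 and 28 with -0.16 for the interaction. With the replicate block as well it gave 8 higher and -0.13 with H2O2, 24 higher and 0.083 for H2O2 in WT cells, 8 lower in Atg7KO cells and 0 higher for the interaction. The replicate block alone gave 0 higher untreated, where ATP5S had an adjusted p of 0.0131 in edgeR, and 5 and 43 with H2O2. Same-numbered samples did not deviate together. The causes of these differences were not tested.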
